A study of Mus musculus with 6 samples.

Results

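ATP-binding cassette (ABC) transporters were examined in activated mouse CD4 T cells with and without vasoactive intestinal peptide (VIP). The genes were chosen by name, as every gene on the array called Abc followed by a subfamily letter from a to g and a number, and each was represented by its brightest probe. This gave 50 genes, carried by 98 probes, of 28090 genes on the array. The family was taken up because Abcb1b was already known from an earlier analysis of the same arrays to be higher with VIP, so the values of Abcb1b are given as a description, with no test. The name rule leaves out family members with other names, such as Tap1 and Tap2.

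In the VIP group, splenic CD4 T cells of male and female C57BL/6J mice aged 6 to 32 weeks were stimulated with PMA, a phorbol ester, and ionomycin, a calcium ionophore, in the presence of VIP. In the untreated group, cells were prepared and stimulated in the same way without VIP, so both groups carry the activation. Whether both RNAs of a replicate came from the same pool of mice is not given. Between 5 and 10 spleens were pooled per sample, CD4 cells were taken with magnetic beads, and 250 ng of total RNA per sample was labelled. The labels state neither how much VIP was added nor for how long. Each of 6 two-colour arrays carried VIP RNA and untreated RNA of 1 replicate, with VIP in the red dye Cy5 on replicates 1, 3 and 5 and in the green dye Cy3 on replicates 2, 4 and 6.

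The channels of replicate 5 stood apart. On that array the log2 ratio of VIP over untreated was -3.29 for Xist, expressed from the inactive X chromosome, and 4.08 for Ddx3y, a gene of the Y chromosome. On the other 5 arrays these ratios lay between -0.34 and 0.46 for Xist and between -0.10 and 0.39 for Ddx3y. The VIP and untreated RNA of replicate 5 thus differed in their share of male and female RNA. On that array sex and VIP cannot be told apart. Results are therefore also given without replicate 5 where that changes a call. All 9 CD4 T cell markers were well above background in both channels of all 6 arrays, and 2 of them, Cd28 and Tcf7, were called higher with VIP. The call of Cd28 was lost without replicate 1, 2 or 6 (limma adjusted p between 0.054 and 0.070), and in 8 of 21 other settings in all (limma adjusted p up to 0.28). Some markers of other cells on the array were also well above background in both channels of all 6 arrays. These were 4 of 6 B cell, 3 of 6 CD8 T and NK cell and 4 of 7 monocyte and macrophage markers. For erythroid cells it was 3 of 6 markers and for platelets 0 of 5. None of 6 B cell, 6 CD8 T and NK cell, 5 erythroid or 4 platelet markers tested was called, and 1 of them was at an unadjusted limma p under 0.05. Of 7 monocyte and macrophage markers Cd14 was called higher, at 0.57 ± 0.070 on the log2 scale (SE, 5 arrays, limma adjusted p = 0.0032). Cd14 is not among the 5 monocyte markers measured on all 6 arrays. Their mean log2 intensity lay between 8.00 and 9.51 in VIP channels and between 7.85 and 9.49 in untreated channels. It was higher in the VIP channel on 4 of 6 arrays, with a mean difference of 0.030. The part of monocytes in the ABC results was not tested. In RNA from whole preparations, fewer cells of a type and less RNA per cell cannot be told apart.

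ABC proteins use ATP to move lipids, peptides, metabolites and foreign compounds across membranes, and a few subfamilies without a membrane domain act on ribosomes instead. Subfamily B holds P-glycoprotein, the multidrug efflux pump, which rodents make from a pair of near-identical genes, Abcb1a and Abcb1b. In lymphocytes P-glycoprotein is known as a dye and drug efflux activity of the plasma membrane. Abcb4, a phosphatidylcholine flippase best known from the bile canaliculus of the liver, lies beside both genes on mouse chromosome 5. Abcb9 encodes a peptide transporter of the lysosome.

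Probes are 60 bases long, and those whose values matter most are shown so that the measured parts of each transcript can be recognised. No letters are capitalised here. Positions refer to mm9, as in the files. Only the first 30 bases are given for the brightest Abcb1b probe and the Abcb1a probe.
Abcb1b, brightest probe (chr5:8865925-8865984, plus strand): tccaggctggagcaaagcgctcatgagctg
Abcb1b, probe of middle signal (chr5:8861441-8861500, plus strand): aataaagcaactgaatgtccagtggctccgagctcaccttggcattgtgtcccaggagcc
Abcb1b, dimmest probe (chr5:8827445-8827707, plus strand): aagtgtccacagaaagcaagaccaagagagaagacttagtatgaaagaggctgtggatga
Abcb1a, its 1 probe (chr5:8747979-8748038, plus strand): atatattgtcccaactgggatattgtacat
Abcb4, brightest probe (chr5:8959108-8959167, plus strand): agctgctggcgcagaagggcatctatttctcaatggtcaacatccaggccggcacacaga
The dimmest Abcb1b probe spans 263 bases of the genome for 60 bases of probe, so its parts lie in separate exons. Whether these probes also bind transcripts of the other genes of the group was not tested, and values of Abcb1a, Abcb1b and Abcb4 carry that uncertainty.

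The stretches before the start sites of Abcb1b, Abcb4 and Abcb9, the 3 members that were highest with VIP, were searched for motifs on both strands. The promoter table is RefSeq's, on GRCm38.p6, and 38 of the 50 genes matched it with 45 start sites. Shown are the 250 bases before each start, with capitals marking the CCAAT box (CCAAT, or ATTGG on the other strand) and the GC box (GGGCGG, or CCGCCC on the other strand).
Abcb1b (chr5:8797897-8798146, plus strand): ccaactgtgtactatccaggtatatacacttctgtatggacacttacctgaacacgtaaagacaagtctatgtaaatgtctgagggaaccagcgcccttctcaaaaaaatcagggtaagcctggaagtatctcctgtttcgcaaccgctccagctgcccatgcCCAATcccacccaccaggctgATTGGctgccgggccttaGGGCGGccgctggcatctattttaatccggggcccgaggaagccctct
Abcb4 (chr5:8893471-8893720, plus strand): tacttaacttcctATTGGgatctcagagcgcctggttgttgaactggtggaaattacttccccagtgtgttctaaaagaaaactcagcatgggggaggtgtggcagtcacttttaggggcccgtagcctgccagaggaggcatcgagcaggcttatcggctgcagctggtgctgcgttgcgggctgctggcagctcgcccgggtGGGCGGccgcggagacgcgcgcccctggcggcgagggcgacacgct
Abcb9 (chr5:124095799-124096048, minus strand): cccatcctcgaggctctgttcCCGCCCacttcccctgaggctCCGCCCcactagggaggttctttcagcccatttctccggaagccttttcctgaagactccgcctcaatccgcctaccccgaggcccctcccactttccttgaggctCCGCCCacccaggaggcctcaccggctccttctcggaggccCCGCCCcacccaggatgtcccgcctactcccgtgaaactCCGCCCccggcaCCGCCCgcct
Abcb1b held CCAAT boxes that begin 87 and 66 bases before the start and a GC box at 48 bases. Abcb4 held 1 CCAAT box at 237 bases and 1 GC box at 46 bases, and Abcb9 held 6 GC boxes and no CCAAT box. Of the 45 ABC promoters, 28.9% held a CCAAT box and 44.4% a GC box, against 33.8% and 32.7% of all 32851 promoters of this length. The cAMP response element TGACGTCA and its core TGACG, which the full element contains, were in none of the 3 stretches. The element was in 2 of the 45 ABC promoters (4.44%) and in 1.55% of all promoters. The core was in 9 of the 45 (20.0%) and in 17.8% of all promoters. These letters say nothing of which factors bind.

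Of the 50 genes, 43 passed the signal filter (a probe well above background on 3 or more arrays in 1 of the channels, VIP or untreated). The 7 that did not were 4 of subfamily A, Abcb5 of subfamily B, and Abcc2 and Abcc8 of subfamily C. Leaving out Abcb1b, 2 of 42 tested members were higher with VIP, Abcb4 and Abcb9, which is 4.76% of them. Of all 22890 genes tested, 1.58% were called higher and 0.516% lower (limma, Benjamini-Hochberg adjusted p under 0.05 over all genes tested). None of the 42 was called lower. At an unadjusted limma p under 0.05 there were 7 of the 42, 4 higher and 3 lower, and 12.9% of all genes tested were at that level in either direction. Their median log2 ratio was 0.0035, against -0.0005 over all genes tested, and 22 of the 42 were above 0. That median was -0.035 when arrays were only median centred and -0.026 with the scanner's own ratios. Both calls lay in subfamily B, as the plot of members by subfamily shows.

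**Figure D1:**
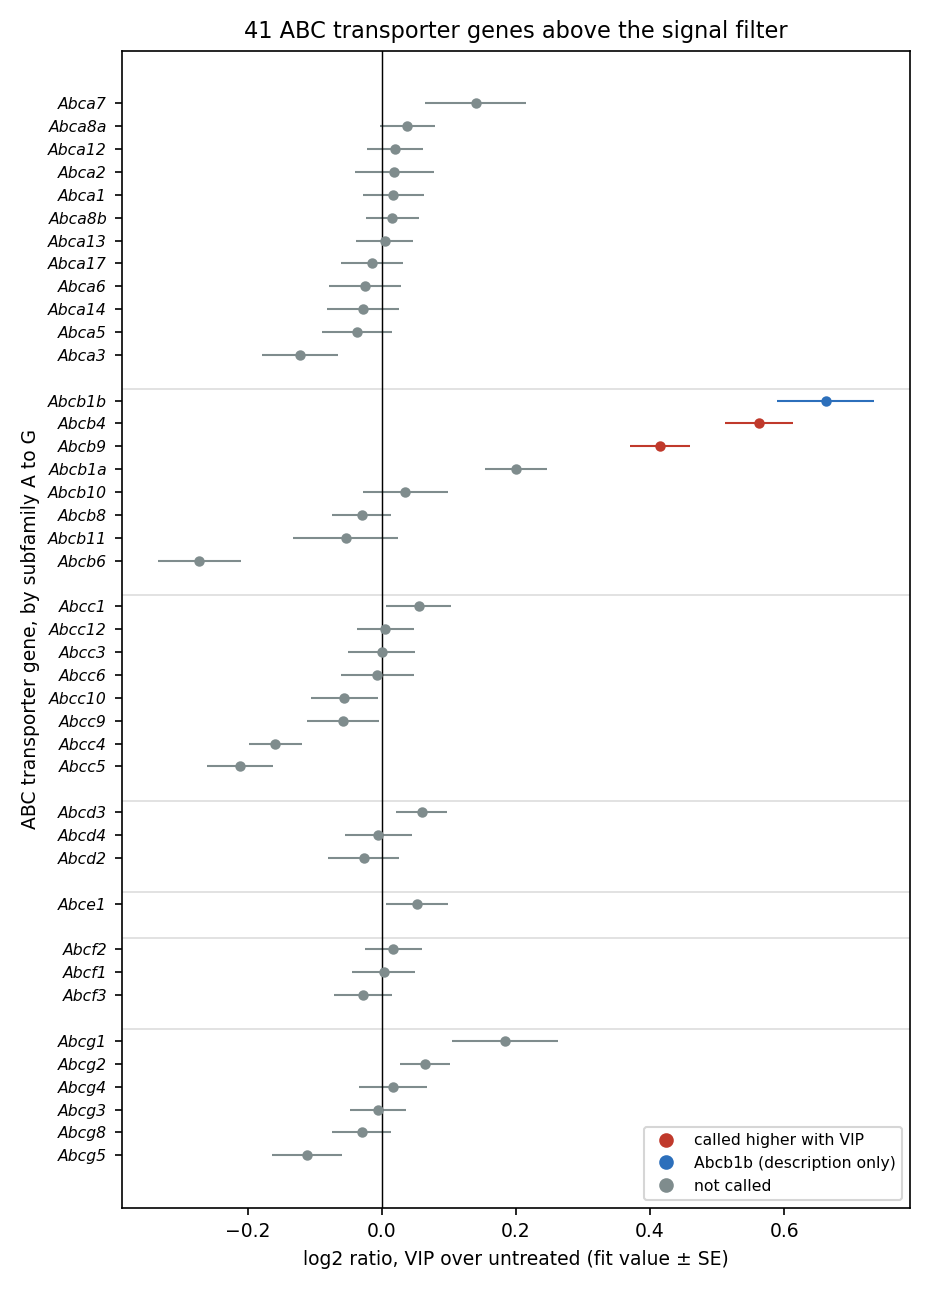
Log2 ratio of VIP over untreated (x axis, fit value with SE as bars) for 41 of the 43 ABC genes that passed the signal filter, grouped from subfamily A at the top to G at the bottom and sorted within each. Abcb4 at 0.56 and Abcb9 at 0.41 are the called genes, Abcb1b at 0.66 is shown as a description, and the other 38 lie between -0.27 and 0.20.

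Abcb1b is the inducible member of the rodent P-glycoprotein pair in several tissues. On its brightest probe the log2 ratio was 1.05, 0.53, 0.83, 0.45, 0.42 and 0.70 on replicates 1 to 6. VIP was above untreated on every array, with replicates 1 and 3 highest and replicates 4 and 5 lowest. The fitted ratio was 0.66 ± 0.072 (SE, n = 6), which is 1.58-fold, and the SD over arrays was 0.22. The 3 slides, each with 1 array of either dye orientation, gave 0.79, 0.64 and 0.56. Without replicate 5 the ratio was 0.75. In log2 intensity Abcb1b averaged 11.32 ± 0.46 in VIP channels and 10.65 ± 0.40 in untreated channels (SD, n = 6 each). These levels overlapped between arrays, with 10.45 to 11.67 in VIP channels and 9.997 to 11.14 in untreated channels, while within each array VIP was the higher one.

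The other probes of Abcb1b gave lower ratios. The probe of middle signal had 0.85, 0.57, 0.65, 0.43, 0.31 and 0.49 on replicates 1 to 6 and a fitted ratio of 0.55 ± 0.064 (SE, n = 6). It was above 0 on all arrays, and again replicate 1 was highest and replicate 5 lowest. The dimmest probe, at a mean log2 intensity of 7.83, had 0.35, 0.44, -0.04, 0.30, 0.02 and -0.08, with a fitted ratio of 0.17 ± 0.072 (SE, n = 6). It was above 0 on 4 of 6 arrays, and its slides gave 0.40, 0.13 and -0.03. The size of the Abcb1b ratio thus differed between probes, and both brighter probes stood above the dimmest one on all 6 arrays.

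Abcb1a, the second P-glycoprotein gene, had 1 dim probe at a mean log2 intensity of 6.99. Its log2 ratio was 0.14, 0.27, 0.32, 0.25, 0.16 and 0.07 on replicates 1 to 6, above 0 on each, and the fitted value was 0.20 ± 0.046 (SE, n = 6). It was not called (limma adjusted p = 0.059), and it was called without replicate 5 (0.21, limma adjusted p = 0.039), with array weights (0.21, limma adjusted p = 0.026) and with a trend in the prior variance (0.20, limma adjusted p = 0.048). Over the 20 other settings that gave it a value, the Abcb1a ratio lay between 0.17 and 0.53. Leaving out 1 replicate gave 0.17 to 0.23, so the higher values came with other processing. The probe was well above background in the VIP channel of 6 arrays and in the untreated channel of 5.

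Abcb4 rose with VIP. Its brightest probe gave log2 ratios of 0.81, 0.42, 0.67, 0.27 and 0.46 on replicates 1, 2, 3, 4 and 6, and its spot on replicate 5 was left out for an outlier mark of the scanner software. All 5 arrays were above 0, with replicate 1 highest and replicate 4 lowest. The fitted ratio was 0.56 ± 0.051 (SE, n = 5 arrays), which is 1.48-fold (limma adjusted p = 0.00073). Since replicate 5 gave no value, this result is as large without it. Log2 intensity averaged 12.00 ± 0.53 in VIP channels and 11.48 ± 0.38 in untreated channels (SD, n = 5 each), and these levels overlapped between arrays. A second Abcb4 probe, near background at a mean log2 intensity of 6.52, had a ratio of 0.03 ± 0.051 (SE, n = 6), and averaging both probes ended the call (0.23, limma adjusted p = 0.12). With the scanner software's own ratios, on which 19 genes in all were called, Abcb4 had 0.57 (limma adjusted p = 0.087).

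**Figure D2:**
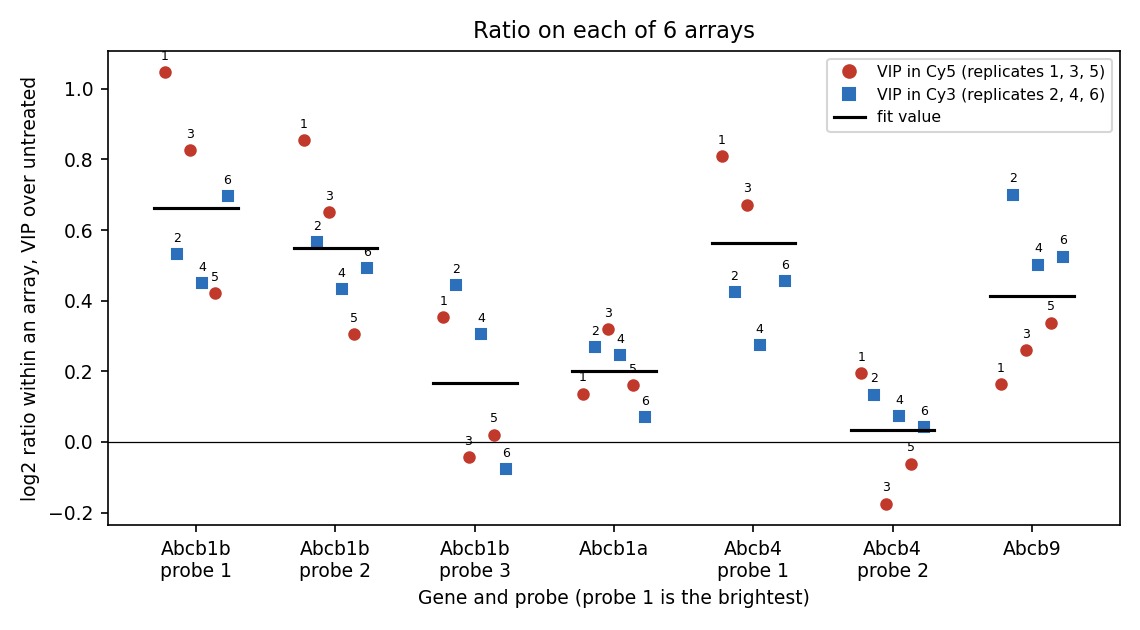
Log2 ratio of VIP over untreated within each array (y axis) for all probes of Abcb1b, Abcb1a and Abcb4 and the probe of Abcb9 (x axis). Points are arrays labelled by replicate, circles with VIP in Cy5 and squares with VIP in Cy3, and lines are the fitted values. The brighter probes of Abcb1b and Abcb4 and the Abcb9 probe lie above 0 on every array measured, and the dimmest probes of Abcb1b and Abcb4 scatter around 0.17 and 0.03.

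Abcb9 rose with VIP as well. Its log2 ratio was 0.16, 0.70, 0.26, 0.50, 0.34 and 0.52 on replicates 1 to 6, above 0 on each. The 3 arrays with VIP in Cy3 were higher than the 3 with VIP in Cy5, a difference that the dye term of the fit takes up. The fitted ratio was 0.41 ± 0.045 (SE, n = 6), which is 1.33-fold (limma adjusted p = 0.0012), and the slides gave 0.43, 0.38 and 0.43. With the scanner software's own ratios Abcb9 had 0.43 (limma adjusted p = 0.078). Log2 intensity averaged 11.51 ± 0.30 in VIP channels and 11.09 ± 0.33 in untreated channels (SD, n = 6 each), with overlap between arrays. The Abcb9 probe lies at chr5:124511875-124511934 on the minus strand (mm9), far from the Abcb1 genes on the same chromosome.

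The remaining 5 tested members of subfamily B, beside Abcb1a, were not called. Abcb6, linked to porphyrin transport, had -0.31, -0.37, -0.18, -0.56, -0.17 and -0.04 on replicates 1 to 6. It was below 0 on each, with a fitted ratio of -0.27 ± 0.062 (SE, n = 6) that missed the threshold (limma adjusted p = 0.056) and passed it without replicate 5 (-0.29, limma adjusted p = 0.031) and without replicate 6 (-0.34, limma adjusted p = 0.016). Abcb6 was singled out after its values were seen, as was Abcc4 below. The mitochondrial members Abcb8 and Abcb10 had ratios of -0.03 and 0.04, and the bile salt export pump Abcb11 had -0.05.

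**Figure D3:**
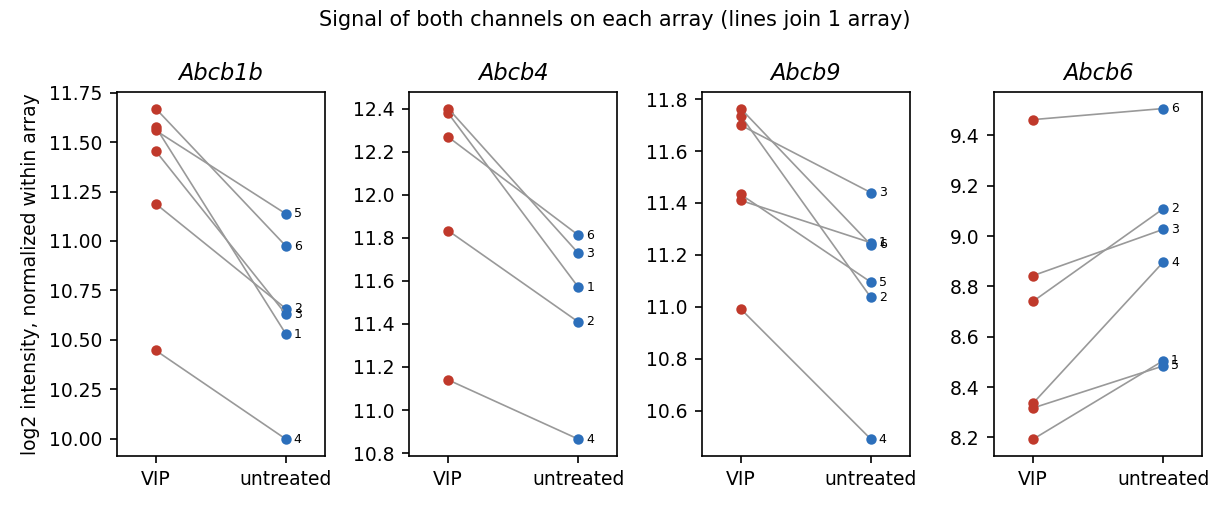
Log2 intensity, normalized within arrays, in the VIP channel (left) and the untreated channel (right) for Abcb1b, Abcb4, Abcb9 and Abcb6, with a line for each array and its replicate number. Each panel has its own axis, which does not start at 0. The lines of Abcb1b, Abcb4 and Abcb9 fall towards the untreated side on every array measured, and those of Abcb6 climb.

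The calls in subfamily B were set beside their chromosomal surroundings. In the list of Abcb1 neighbours on chromosome 5, 8 of 10 genes other than Abcb1b were tested. Called higher were 3 of the 8, Abcb4, Rundc3b and Crot, beside 1.58% of all genes tested. At an unadjusted limma p under 0.05 there were 7 of the 8, all higher, beside 7.18% of all genes tested. Rundc3b, a gene for a RUN domain protein, had log2 ratios of 0.84, 0.49, 0.61, 0.30, 0.38 and 0.77 on replicates 1 to 6, all above 0, and a fitted ratio of 0.57 ± 0.071 (SE, n = 6, limma adjusted p = 0.0025; 0.63 and 0.084 with the scanner software's own ratios). Crot, a peroxisomal carnitine octanoyltransferase, had 0.41, 0.34, 0.19, 0.28, -0.01 and 0.25, with replicate 5 the only array at or below 0, and a fitted ratio of 0.25 ± 0.054 (SE, n = 6, limma adjusted p = 0.048). The adjusted p of Crot rose to between 0.12 and 0.18 when any of the other 5 replicates was left out, and it was 0.0041 without replicate 5.

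A window of 1000 kb on either side of the brightest Abcb1b probe, chosen after these values were seen, held 22 other genes of the array, of which 16 were tested. Abcb4, Rundc3b and Crot were the 3 called higher, 18.8% of those tested beside 1.58% of all genes tested, and none was called lower, nor lower at an unadjusted limma p under 0.05. With genes named through RefSeq accessions 1 was called lower. A second probe of 4930420K17Rik, a transcript known by its clone name, had -0.22 ± 0.045 (SE, n = 6), below 0 on 6 of 6 arrays, while its brightest probe had 0.00. The probes of Abcb4, Rundc3b and Crot lay 93.2 kb, -375.3 kb and 100.5 kb from the Abcb1b probe. The median log2 ratio of the 16 was 0.055, and 13 of them were above 0. Genes not called lay both nearer and farther than Rundc3b, such as Dbf4, a cell cycle kinase subunit, at -468.4 kb (0.11 ± 0.041, SE), Sri, a calcium-binding protein, at -801.3 kb (0.13 ± 0.045, SE) and Dmtf1, a Myb-like transcription factor, at 253.4 kb (0.01 ± 0.055, SE). Slc25a40, a mitochondrial carrier with its probe -411.4 kb away and next to Rundc3b, had 0.14 ± 0.060 (SE) and was not called either. By their brightest probes, the genes called were therefore not all of those around Abcb1b. The other probes of Dbf4 had 0.21 ± 0.045 and 0.08 ± 0.042 (SE, n = 6 each), above 0 on 6 and 4 arrays. The second probe of Crot had 0.13 ± 0.047 (SE, n = 6), above 0 on 5 arrays. In the 250 bases before the start, Rundc3b had the core TGACG at 2 places and Crot at none.

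**Figure D4:**
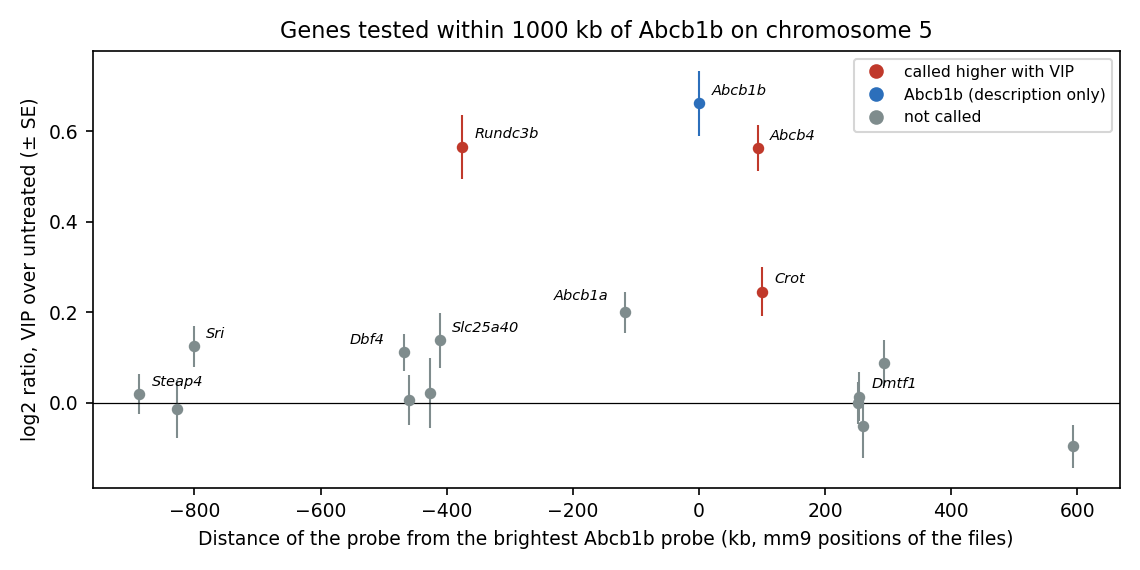
Log2 ratio of VIP over untreated (y axis, with SE as bars) against the distance in kb of each gene's brightest probe from that of Abcb1b (x axis), for Abcb1b and the 16 other genes tested within 1000 kb on chromosome 5. Rundc3b, Abcb4 and Crot stand at 0.57, 0.56 and 0.25, and Steap4, Sri, Slc25a40 and Dbf4 on the left and Dmtf1 on the right lie between 0.01 and 0.14.

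Subfamily C holds efflux pumps for organic anions and conjugates, and its 8 tested members gave no call, with 2 at an unadjusted limma p under 0.05. Their median log2 ratio was -0.03, and 6 of 8 were below 0. Abcc5, known for export of cyclic nucleotides, had -0.21, -0.30, -0.20, -0.32, -0.24 and 0.00 on replicates 1 to 6, with replicate 6 apart from the rest. Its fitted ratio was -0.21 ± 0.050 (SE, n = 6, limma adjusted p = 0.065), and without replicate 6 it was -0.26 (limma adjusted p = 0.023). Abcc4, which exports cyclic AMP and prostaglandins, had -0.14, -0.22, -0.08, -0.24, -0.01 and -0.26, below 0 on each array, and a fitted ratio of -0.16 ± 0.040 (SE, n = 6, limma adjusted p = 0.084). The other probes of Abcc5 gave -0.05 and -0.17, and the second probe of Abcc4 gave -0.03.

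Abcc1, which exports glutathione conjugates and leukotriene C4, had 0.05 ± 0.048 on its brightest probe (SE, 5 arrays, limma adjusted p = 0.72). Its other probes gave -0.16 ± 0.085 and -0.20 ± 0.095 (SE, n = 6 each), with 2 of 6 arrays above 0 in both. The lowest values of these probes, -0.63 and -0.81, were on replicate 5, where the brightest probe had no value. The sign for Abcc1 thus turned with the probe. Abcc3, Abcc6, Abcc9, Abcc10 and Abcc12 lay between -0.06 and 0.01.

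In subfamily A, the lipid transporters, 12 of 16 members were tested and none was called or at an unadjusted limma p under 0.05, with ratios between -0.12 and 0.14. Abca7, linked to phospholipid export and phagocytosis, had -0.25, 0.39, 0.02, 0.00, 0.32 and 0.37 on replicates 1 to 6. Its arrays lay on both sides of 0, and the fitted ratio of 0.14 ± 0.075 (SE, n = 6) did not pass (limma adjusted p = 0.50). Abca1, the cholesterol efflux pump that loads apolipoprotein A-I, had 0.02 ± 0.045 (SE, n = 6), and Abca3, known from surfactant secretion in the lung, had -0.12 ± 0.056 (SE, n = 6).

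Subfamily G had 6 of 6 members tested and none called, with 1 at an unadjusted limma p under 0.05. Abcg1, the sterol efflux partner of Abca1 in macrophages, had -0.08, 0.42, -0.07, 0.10, 0.53 and 0.21 on replicates 1 to 6, with 2 arrays below 0. The fitted ratio of 0.18 ± 0.078 (SE, n = 6) did not pass (limma adjusted p = 0.35). Abcg2, a multidrug efflux pump with substrates that overlap those of P-glycoprotein, had 0.06 ± 0.038 (SE, n = 6, limma adjusted p = 0.54). Abcg5, an intestinal and hepatic sterol pump, had -0.11 ± 0.052 (SE, n = 6).

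None of the 4 members of the peroxisomal subfamily D was called or at an unadjusted limma p under 0.05. Abcd3, a fatty acid transporter of the peroxisome, was above 0 on 6 of 6 arrays at 0.06 ± 0.038 (SE, limma adjusted p = 0.59). Subfamilies E and F act in translation and have no membrane domain, and none of their 4 members was called or at that level. Abce1, the ribosome recycling factor, had 0.12, 0.06, 0.05, 0.01 and 0.03 on replicates 1, 3, 4, 5 and 6, and a fitted ratio of 0.05 ± 0.046 (SE, n = 5 arrays). Abcf1, Abcf2 and Abcf3 had ratios of 0.00, 0.02 and -0.03.

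Of 27 further probes of tested members that passed the signal filter, in 20 genes, 18 had the sign of the brightest probe. Of the 27, 5 were more than 2 SE from 0, namely the other probes of Abcb1b and 1 probe each of Abca12 (0.09), Abcc1 (-0.20) and Abcc5 (-0.17).

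Genes that work with ABC transporters were described from 3 further lists. In the sterol list 1 of 16 tested genes was called, Srebf2, the sterol-sensing transcription factor (-0.22 ± 0.045, SE, n = 5 arrays, below 0 on 5 of 5, limma adjusted p = 0.043). This call was lost when any of replicates 1, 2, 3, 4 and 6 was left out (limma adjusted p between 0.11 and 0.25). None of 16 genes for the response to foreign compounds and oxidants was called, 3 were at an unadjusted limma p under 0.05, and Nfe2l2, the oxidant-responsive factor, had 0.21 ± 0.056 (SE, n = 6, limma adjusted p = 0.10) and was called higher without replicate 5. None of 12 peptide loading genes was called and 2 were at an unadjusted limma p under 0.05. Not among these 2 were Tap1 and Tap2, the ABC proteins that carry peptides into the endoplasmic reticulum, with log2 ratios of -0.01 and -0.02.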

How the data were processed

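Per the labels, each array compared VIP with untreated RNA of 1 replicate. Per the file headers, Agilent Feature Extraction (version 9.5.1.1) quantified the scans. The deposited scanner files hold spot intensity and local background per channel, quality flags (0 or 1) and a log10 ratio of red over green. The authors' series table holds those log10 ratios, turned to VIP over untreated. Probe positions are on mm9.

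Background correction of mean intensity used normexp, with offset 50 and the median of the local background, and ratios were normalized by loess within arrays with the 1639 control spots at weight 0, and outlier spots were left out (0.574% to 13.5% per array). Spots of a probe were averaged. Per gene name, the brightest probe with values on at least 3 arrays was used. Between 56.9% and 99.9% of spots were well above background, and precision is limited by the 6 arrays.

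Each gene's log2 ratios were modelled by a dye term and a VIP term of opposite sign in the 2 orientations (lmFit and eBayes, limma 3.58.1, R 4.3.3; 4 residual and 6.23 prior degrees of freedom). Adjusted p is Benjamini-Hochberg's over 22890 genes. The fit was tested on simulated data. The design text calls the replicates biological, and p-values cover their spread. Signals of different probes were used to rank probes and to choose genes to name, not to compare amounts of transcript. Ratios of genes are compared only as log2 ratios. Each of 3 slides held 1 array per orientation, and orientation and array position cannot be told apart.

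Members and lists were chosen with earlier results of these data known. Named genes were all probes of Abcb1a and Abcb1b, then per subfamily the called members, the brightest and the one with the largest ratio, and per list the called genes, else those with the smallest p. Other members are named to account for the subfamily. Some genes chosen by this rule are not reported here. Alternatives varied background correction, normalization, values, filter, flags, probe rule, names, dye term, slide, weights, prior, threshold and replicates. RefSeq accessions named 24844 of 41174 probes and changed no ABC name.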

Additional observations from a re-analysis of the deposited data

Results flagged for a closer look

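Among 33 named genes, 2 had an array whose ratio stood apart from the others by Dixon's test, and chance gives about 1 in 20. These ratios still hold the dye effect, and whether the 2 stand apart with it taken out was not tested. For Abcc5 this was replicate 6, with a log2 ratio of 0.0009, while the other 5 arrays lay between -0.32 and -0.20. For Itga2b, a platelet marker, it was replicate 3, with a log2 ratio of -0.29.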

How the results depend on the processing

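Agilent's own LogRatio and the authors' series table gave 19 genes called higher, 0 lower and 0 ABC genes in either direction (limma; 4 ABC genes higher and 3 lower, and 1004 genes lower in all, at an unadjusted p under 0.05), with an ABC median of -0.026, while Abcb1b stayed at 0.68. Genes called higher and lower numbered 362 and 118, and 74 and 9 with normexp at offset 0, 114 and 8 with median centring (ABC median -0.035), 163 and 38 without a dye intercept, and 173 and 33 at an adjusted p under 0.01. Genes called lower numbered 74 with outlier spots kept, 61 with the slide as a block and 224 with array weights, which also called 3 ABC genes lower, Abcb6, Abcc4 and Abcc5, and, as did a trend in the prior variance, Abcb1a higher beside Abcb4 and Abcb9. Averaging all probes of a gene left 1 ABC gene called higher, Abcb9. Leaving out 1 replicate gave 163 to 571 genes higher, 30 to 251 lower (both highest without replicate 5), 2 to 3 ABC genes higher, always with Abcb4 and Abcb9, 0 to 2 ABC genes lower, an ABC median of -0.0032 to 0.014 and an Abcb1b ratio of 0.59 to 0.75. Abcb1b lay between 0.46 (mean of its probes) and 0.75 in all 20 settings that give it a value. The calls of Crot and Srebf2 were lost in 14 and 15 of 21 settings. Apart from changes that follow from fewer arrays or a stricter threshold, the cause was not tested. No separate paired analysis was possible because each array holds both groups, so the array ratio already compares them within a replicate. The channels of replicate 5 were not matched in Xist and Ddx3y. Signal near background limits Abcb1a, the second probe of Abcb4 and most of subfamily A. The dimmest probe of Abcb1b, though well above background in both channels of all 6 arrays, had a lower signal than its other probes.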
